A study of Mus musculus with 19 samples.

Results

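Perilipins coat the lipid droplet, the organelle in which cells store triglyceride and sterol esters, and they decide how easily lipases reach that store. The 8 genes described here are the perilipin family (Plin1, Plin2, Plin3, Plin4 and Plin5) together with Pnpla2, Hilpda and G0s2, which encode the main triglyceride lipase of droplets and a pair of small proteins that inhibit it. They were picked by name as droplet genes after Plin4 had been seen to be the gene with the strongest difference between mice exposed to SOR and mice left in the homecage, and all 8 of 8 were found among the 51789 genes of the count table. The contrast of SOR with homecage therefore chose Plin4, and the members' values in it are given below as a description, with no p-value and with nothing read from a call.

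In the brain, droplets are seen mostly in glia and in ependymal cells, and Plin2 and Plin3 are the perilipins of most tissues. Plin1 is the adipocyte perilipin, Plin5 that of tissues that oxidise fatty acids, and Plin4 is known from adipocytes and muscle, where it coats small, young droplets through a long stretch of repeats. Plin2 and Hilpda are also known targets of fatty acid and hypoxia signalling.

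RNA of the dorsal hippocampus was sequenced in 19 libraries from C57BL/6J males, 2 to 4 months old, made from total RNA after removal of ribosomal RNA. In experiment 1 all mice were tTA+ and exposed to SOR (spatial object recognition, a memory task for the places of objects, as known from the study). Of these, 5 were tTA+/DN+, which carry the dominant-negative Nr4A transgene (Nr4ADN) that tTA, the tetracycline transactivator, switches on, and 6 were tTA+/DN- controls. In experiment 2 all mice were DN-, with 4 exposed to SOR (replicate 1 tTA-/DN-, replicates 2 to 4 tTA+/DN-) and 4 left in the homecage (replicates 1 and 2 tTA-/DN-, replicates 3 and 4 tTA+/DN-). No homecage library belonged to experiment 1 and no DN+ library was in the homecage. The promoter that drives tTA is not named in the labels used here. In the Nr4ADN mice of the literature it is that of Camk2a, active in excitatory forebrain neurons, so glia and vessels would not carry the dominant-negative protein. The labels do not say whether a library is 1 mouse or several, and p-values measure the spread between these libraries.

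Library totals ran from 22258159 (experiment 2, SOR replicate 3) to 66991576 counts. Levels are CPM, counts relative to the library total, scaled with the TMM factors of edgeR, within each experiment, and given as mean ± SD. The tissue check found all 8 hippocampal neuron markers in every library, at a summed 4039 to 5301 CPM. Choroid plexus markers varied most: the 8 genes summed to 24.9 to 1650 CPM in DN mice, 18.4 to 4127 in controls of experiment 1, 22.4 to 2190 after SOR in experiment 2 and 43.2 to 170 in the homecage. Adipocyte markers were close to absent, with a sum of 0.783 to 1.68 CPM over 8 genes and no library above 3 counts for Adipoq, Cfd or Cidec. In RNA from a whole tissue, fewer cells of a type and less RNA per cell cannot be told apart.

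Plin4 (ENSMUSG00000002831.13, chromosome 17, 56100591 to 56109803, minus strand, mm10) has a feature that bears on how its reads are counted. Its exon 6 is coding sequence built from tandem repeats. A copy of the longest Plin4 transcript shifted by 297 bases matched itself at 49.9% of positions, and one shifted by 99 bases at 49.7%, against a median of 25.3% over shifts of 30 to 399 bases. Neighbouring 297-base units of the exon were 82.5% identical (unit 2 to unit 1), while unit 3 matched unit 1 at 97.0% with 9 differences. Units 1 and 3 are shown because they are nearly identical over their whole length. Unit 1 lies at chr17:56104921-56105217 and unit 3 at chr17:56104327-56104623. Both are written 5′ to 3′ on the minus strand of the reference, and capitals in unit 3 mark the bases that differ from unit 1.
Plin4 repeat unit 1: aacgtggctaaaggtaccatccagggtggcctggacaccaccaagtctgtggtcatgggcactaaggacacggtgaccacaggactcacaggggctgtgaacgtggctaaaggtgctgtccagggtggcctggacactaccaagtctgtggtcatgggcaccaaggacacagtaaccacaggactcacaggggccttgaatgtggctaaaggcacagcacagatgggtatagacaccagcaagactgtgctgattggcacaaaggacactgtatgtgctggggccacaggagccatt
Plin4 repeat unit 3: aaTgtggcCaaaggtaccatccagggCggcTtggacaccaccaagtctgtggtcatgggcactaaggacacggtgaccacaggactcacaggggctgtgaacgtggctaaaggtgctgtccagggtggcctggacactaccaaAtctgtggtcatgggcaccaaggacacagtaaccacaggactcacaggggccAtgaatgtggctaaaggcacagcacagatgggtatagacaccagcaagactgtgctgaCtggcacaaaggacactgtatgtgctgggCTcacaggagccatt

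Of the 5707 windows of 50 bases in that transcript, 995 (17.4%) occur in it again, against 0 in the longest transcript of each of the other 7 genes. How reads with several matches were counted is not given in the sources used here, so the level of Plin4 against the other genes is less certain than theirs. The last 17 bases of Plin4 also overlap Hdgfl2, a gene on the plus strand, and the use of strand in counting is not given in the sources used here.

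After SOR, Plin4 was about 4 times its homecage level in experiment 2. The homecage libraries, replicates 1 to 4, held 4.49, 5.97, 4.03 and 4.60 CPM of Plin4. The SOR libraries held 21.6, 23.5, 18.2 and 18.3 CPM. The lowest SOR library lay above 3 times the highest homecage one, so the groups were far apart. The group means were 20.4 ± 2.60 CPM (SD, n = 4) after SOR and 4.77 ± 0.836 CPM (SD, n = 4) in the homecage. The fitted log2 fold change was 2.10 (SE 0.145), a fold of 4.29 with a 95% interval of 3.44 to 5.35. Plin4 was picked as the strongest gene of this contrast, so its fold is prone to be too high. The interval takes no account of that choice and is no test. In raw counts the homecage libraries held 134 to 275 reads and the SOR libraries 385 to 1093, so counting error was 6.78% and 3.44% of the mean, below the spread between libraries of 17.5% and 12.7%.

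The tTA genotype was uneven across these groups, and Plin4 was high after SOR in both genotypes. Among tTA+ mice the SOR mean was 20.01 ± 3.03 CPM (SD, n = 3) and the homecage mean 4.31 CPM (2 libraries). Among tTA- mice the single SOR library held 21.6 CPM and the homecage mean was 5.23 CPM (2 libraries). In tTA+ mice alone the log2 fold change was 2.22 (SE 0.194). That setting, 3 against 2 libraries, had 0 genes, and so no member, past the threshold of an adjusted p under 0.05 in the edgeR quasi-likelihood fit, against 20 genes with all 8 libraries.

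**Figure D1:**
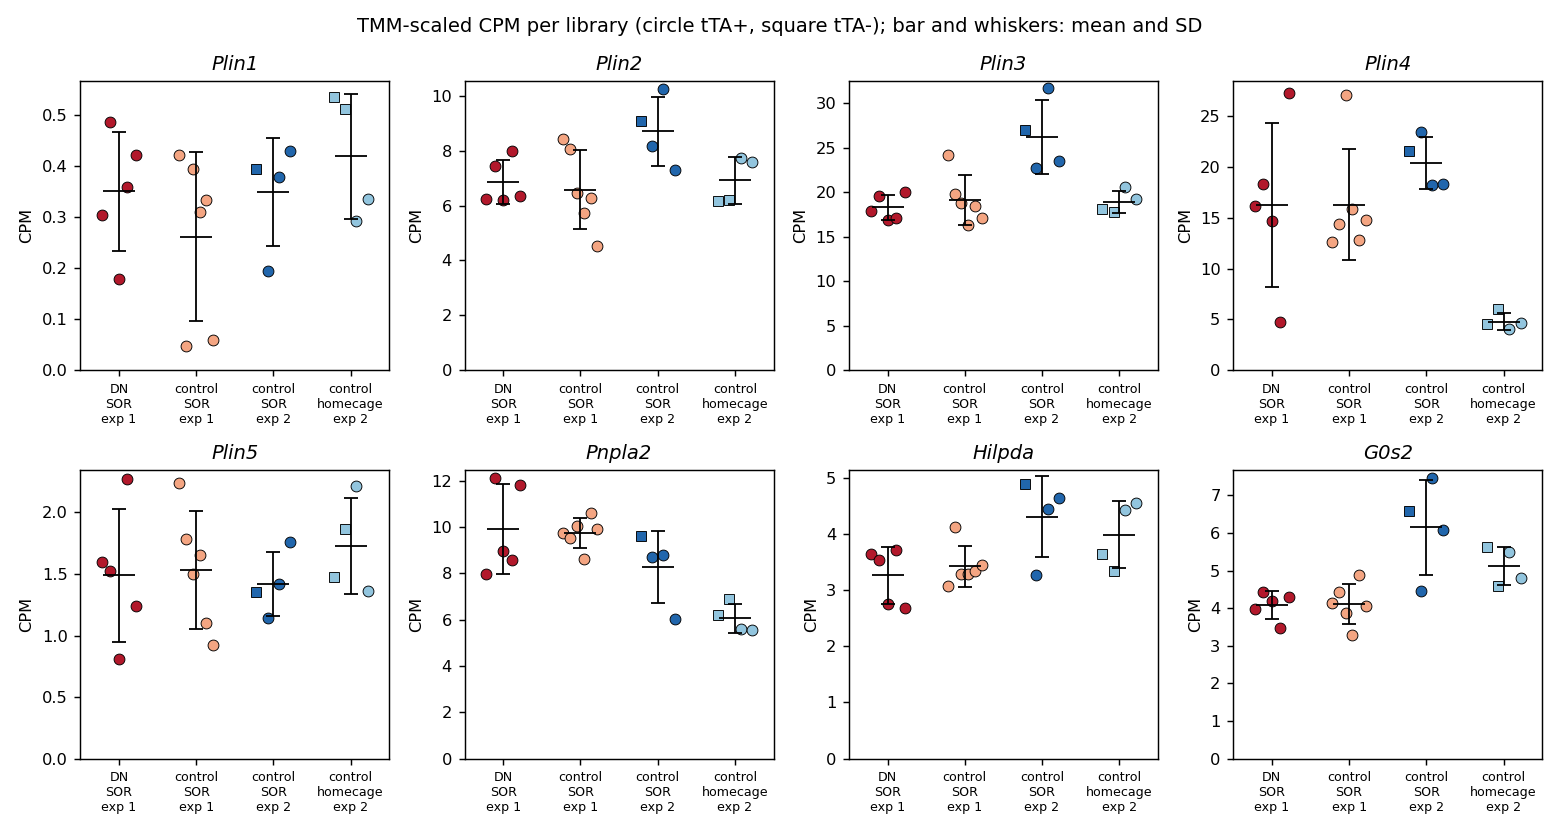
Levels of the 8 genes in each of the 19 libraries, in TMM-scaled CPM on a linear axis that starts at 0, with 1 point per library (circles tTA+, squares tTA-) and the mean and SD of each group. Plin4 sits between 4.03 and 5.97 CPM in the homecage and between 18.2 and 23.5 CPM after SOR in experiment 2, and DN replicate 4 of experiment 1 (4.75 CPM) lies at the homecage level.

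Plin3, the widely expressed perilipin that moves from the cytosol onto new droplets, was the other member whose SOR and homecage libraries did not overlap. Homecage replicates 1 to 4 held 18.1, 17.8, 20.5 and 19.3 CPM and SOR replicates 27.0, 22.7, 31.7 and 23.5 CPM. The means were 18.9 ± 1.26 CPM (SD, n = 4) and 26.2 ± 4.13 CPM (SD, n = 4), with a log2 fold change of 0.47 (SE 0.117, 95% interval of the fold 1.16 to 1.65). The highest value was that of SOR replicate 3, the library with the lowest total and the fewest genes detected (27815). Without that library the log2 fold change was 0.37 (SE 0.0894).

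Pnpla2 encodes adipose triglyceride lipase, which removes the first fatty acid of a stored triglyceride. It was at 6.20, 6.90, 5.58 and 5.56 CPM in the homecage and 9.61, 8.71, 8.80 and 6.01 CPM after SOR. Only SOR replicate 4 fell inside the homecage range, and the log2 fold change was 0.45 (SE 0.159, 95% interval of the fold 1.07 to 1.74). Plin2, the ubiquitous perilipin that follows the amount of stored lipid, was at 6.17, 6.20, 7.74 and 7.59 CPM in the homecage and 9.11, 8.17, 10.3 and 7.32 CPM after SOR. Here SOR replicate 4 lay below 2 homecage libraries, and the log2 fold change was 0.33 (SE 0.142). In tTA+ mice alone it was 0.16 (SE 0.201), which leaves out SOR replicate 1 and the homecage libraries at 6.17 and 6.20 CPM. Without SOR replicate 3, the library with the highest Plin2, the log2 fold change was 0.24 (SE 0.13).

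The inhibitors of the lipase, G0s2 and Hilpda, had values closer to 0. G0s2 was at 4.59 to 5.63 CPM in the homecage and 4.45 to 7.47 CPM after SOR, with a log2 fold change of 0.26 (SE 0.169). Without SOR replicate 3, the library with the highest G0s2, the log2 fold change was 0.155 (SE 0.157). Hilpda, the hypoxia-inducible inhibitor, was at 3.33 to 4.55 CPM and 3.27 to 4.89 CPM, with a log2 fold change of 0.11 (SE 0.175) whose sign changed to -0.13 in tTA+ mice alone. The groups overlapped for both genes.

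Plin5 and Plin1 had log2 fold changes below 0 in the same contrast, that of Plin1 not in tTA+ mice alone (0.07, SE 0.483). Plin5, 1.8 kb upstream of Plin4 on the same strand, was at 1.36 to 2.21 CPM in the homecage and 1.14 to 1.76 CPM after SOR, with a log2 fold change of -0.30 (SE 0.224). Plin1 had 8 to 22 counts per library in experiment 2, and its log2 fold change was -0.24 (SE 0.347). Its fold interval of 0.502 to 1.44 leaves a wide range, as does the Plin5 interval of 0.58 to 1.15.

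In the fit over all genes, which held all 8 members, 1 of them was past the threshold (Plin4). The background was 20 of 22305 genes (0.0897%), all of them higher after SOR. The SOR and homecage libraries did not overlap in 2 of 8 members, both higher, against 5.71% of all genes tested and 3.06% of them in the higher direction. Since this contrast chose the gene that led to the list, nothing is read from these counts. Choroid plexus markers also had higher values after SOR, with all 8 log2 fold changes above 0, a median of 2.62 and 0 called. SOR replicates 3 and 4, with choroid plexus sums of 22.4 and 55.8 CPM inside or below the homecage range, held 18.2 and 18.3 CPM of Plin4. SOR replicates 1 and 2, with sums of 992.6 and 2190 CPM, held 21.6 and 23.5 CPM. In experiment 1 the highest sums were those of control replicates 1 and 2 and DN replicate 2, at 4127, 1354 and 1650 CPM. These libraries held 12.6, 14.4 and 18.3 CPM of Plin4. Control replicate 3 and DN replicate 5, highest in Plin4 at 27.1 and 27.3 CPM, had sums of 23.9 and 39.6 CPM. The part of choroid plexus in the level of Plin4 was not tested. Adipocyte markers summed to 1.07 to 1.68 CPM in the homecage and 0.817 to 1.21 CPM after SOR.

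**Figure D2:**
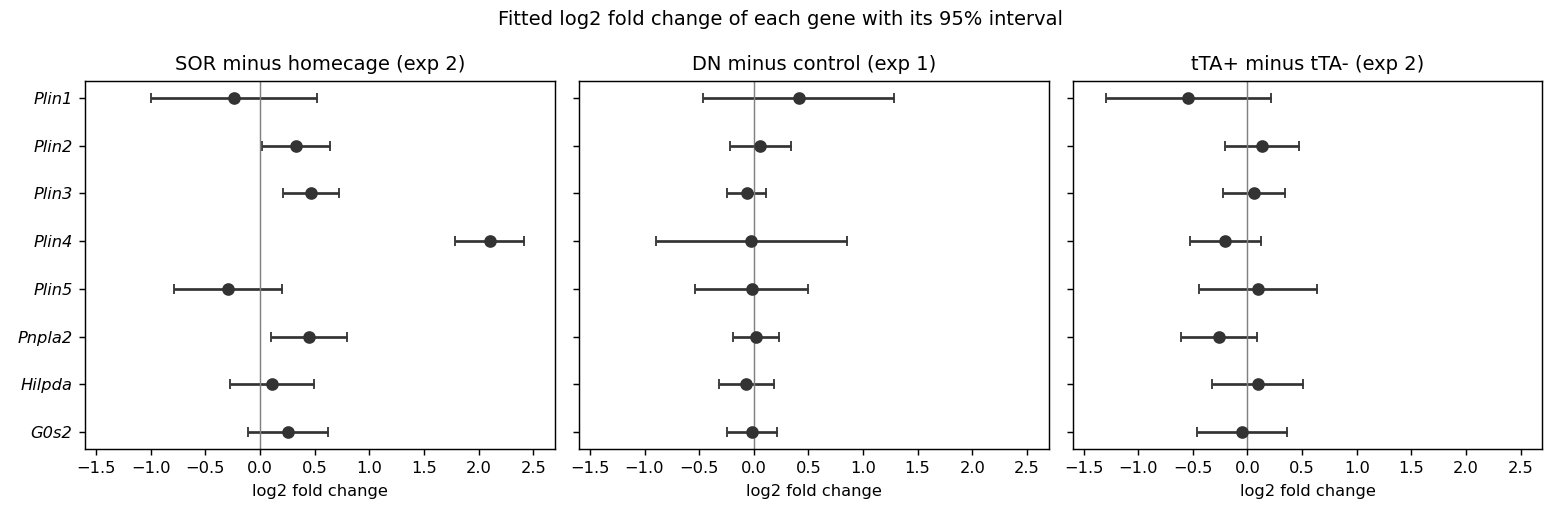
Fitted log2 fold change of each gene with its 95% interval in the 3 comparisons, SOR minus homecage, DN minus control and tTA+ minus tTA-. Plin4 is at 2.10 in the first panel, every interval of the DN and tTA panels includes 0, and the Plin4 interval of the DN panel (-0.90 to 0.86) is among the widest.

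Experiment 1 addressed whether blocking Nr4A function changes expression after SOR. None of the 8 droplet genes differed between DN and control mice beyond the spread between libraries. The edgeR quasi-likelihood test called 0 of 8 (adjusted p = 0.999 for each), and 0 of 8 had an unadjusted p under 0.05, the smallest being 0.337 for Plin1. The background was 2 of 22391 genes called (0.00893%), 3.83% with an unadjusted p under 0.05 and 0.299% with groups that did not overlap. All 8 members overlapped between groups.

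For 5 of the 8 the test bounds the difference tightly. The log2 fold change of Plin3 was -0.06 (SE 0.0844, 95% interval of the fold 0.846 to 1.08), from 18.3 ± 1.44 CPM (SD, n = 5) in DN mice and 19.1 ± 2.78 CPM (SD, n = 6) in controls. That of Pnpla2 was 0.02 (SE 0.102, fold 0.875 to 1.17), from 9.90 ± 1.94 CPM (SD, n = 5) and 9.75 ± 0.660 CPM (SD, n = 6). G0s2 gave -0.02 (SE 0.112, fold 0.842 to 1.16), Hilpda -0.07 (SE 0.12, fold 0.802 to 1.13) and Plin2 0.06 (SE 0.132, fold 0.86 to 1.26). Plin5, at 0.808 to 2.27 CPM in DN mice and 0.921 to 2.24 CPM in controls, gave -0.02 (SE 0.243, fold 0.69 to 1.41).

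Plin4 was not so bounded, and its level differed widely between libraries of the same group. DN replicates 1 to 5 held 16.2, 18.3, 14.7, 4.75 and 27.3 CPM. Control replicates 1 to 6 held 12.6, 14.4, 27.1, 15.9, 12.8 and 14.8 CPM. The group means were the same to within their spread, 16.3 ± 8.09 CPM (SD, n = 5) in DN mice and 16.3 ± 5.46 CPM (SD, n = 6) in controls. The log2 fold change was -0.02 (SE 0.389), and the 95% interval of the fold, 0.537 to 1.81, is wide. Without DN replicate 4 the log2 fold change was 0.22 (SE 0.271), and without control replicate 3 it was 0.19 (SE 0.379). In neither fit was Plin4 called.

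The spread of Plin4 in experiment 1 was the largest of the 8 genes after that of Plin1, a gene of very few counts. After centring each group, the SD of log2 CPM over the 11 libraries of experiment 1 was 0.695 for Plin4, more than for 98.9% of 22391 genes, against a median gene of 0.156. Plin5 followed at 0.486, more than for 93.2% of genes, with a spread of 36.1% of its mean in DN mice and 31.0% in controls against a counting error of 13.5% and 13.0%. Plin2 was at 0.266 (69.6% of genes), Pnpla2 at 0.199 and Hilpda at 0.184, while Plin3 and G0s2, at 0.166 and 0.168, were close to the median gene. The highest DN library held 5.75 times the Plin4 of the lowest, and the highest control 2.15 times that of the lowest. Counting error of Plin4 was 4.26% and 3.91% of the mean in those groups, against a spread of 49.8% and 33.5%. In experiment 2 the SD of Plin4 was 0.212, more than for 42.9% of 22305 genes, against a median of 0.243. Whether the spread of Plin4 differs between the experiments was not tested. Plin1, with a larger SD still in experiment 1 (0.824), held 2 to 19 counts per library there, so its counting error alone was 28.4% to 31.4% of its mean.

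With all 19 libraries on 1 scale, every control SOR library of experiment 1 lay above every homecage library of experiment 2. Plin4 ran from 12.4 to 26.6 CPM in the former, 18.8 to 23.8 CPM in SOR mice of experiment 2 and 4.11 to 6.11 CPM in the homecage. Of the 5 DN libraries, 4 were also above the homecage range, and replicate 4, at 4.67 CPM, was within it. The experiments are separate in the labels, so these levels are set side by side and not compared by a test. Of the other 7 genes, Pnpla2 had the same order on this scale, at 8.46 to 10.4 CPM in controls of experiment 1 and 5.69 to 7.06 CPM in the homecage, and the other 6 overlapped between those groups.

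The tTA genotype, present in all mice of experiment 1 and in some of experiment 2, was tested in experiment 2 with exposure in the model, 5 tTA+ against 3 tTA- libraries. The edgeR quasi-likelihood test called 0 of 8 droplet genes (adjusted p = 1.0 for each), with 0 of 8 at an unadjusted p under 0.05 and groups that overlapped for all 8. The background was 82 of 22904 genes called (0.358%), 5.71% with an unadjusted p under 0.05 and 5.8% with groups that did not overlap. Each tTA group held SOR and homecage libraries. For Plin4 and Plin3, whose SOR and homecage libraries were apart, overlap was therefore fixed by the design and says nothing of tTA. The log2 fold change of Plin4 was -0.20 (SE 0.147, 95% interval of the fold 0.693 to 1.09). Without the exposure term it was 0.34 (SE 0.72), in a design where 3 of 5 tTA+ and 1 of 3 tTA- libraries came from SOR mice. The lowest p was that of Pnpla2 (0.128), with a log2 fold change of -0.26 (SE 0.157). Plin1 had -0.54 (SE 0.341), and the other 5 lay between -0.05 and 0.14.

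Per kilobase of annotated exon, which allows genes to be compared, Plin3 and G0s2 were the highest pair and Plin1 the lowest gene in all 4 groups, while the order between them differed. In the homecage G0s2 (5.89 ± 0.586 CPM per kb, SD, n = 4) and Plin3 (4.996 ± 0.332) were highest and overlapped. Hilpda followed at 3.62 ± 0.536 CPM per kb, above and apart from Pnpla2 (2.01 ± 0.211) and Plin2 (1.97 ± 0.243), which overlapped each other. Plin5 (0.828 ± 0.186) and Plin4 (0.826 ± 0.145) did not differ beyond their spread, and Plin1 was far below at 0.0902 ± 0.0265 CPM per kb.

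Pnpla2 was rank 4 in the homecage, rank 5 after SOR in experiment 2 and rank 3 in both groups of experiment 1, where it overlapped Hilpda. After SOR in experiment 2, Plin4 reached 3.53 ± 0.450 CPM per kb (SD, n = 4), rank 4 in place of rank 7. There it overlapped Hilpda above it (3.91 ± 0.651) and Pnpla2 below it (2.74 ± 0.519). In experiment 1 it was rank 5 in both groups, at 2.81 ± 1.4 CPM per kb (SD, n = 5) in DN mice and 2.82 ± 0.945 CPM per kb (SD, n = 6) in controls. Plin3 and G0s2 led there as well, with Plin3 first at 4.83 ± 0.381 and 5.05 ± 0.736 CPM per kb. Plin5 and Plin1 were the lowest pair in both groups of experiment 1 and after SOR in experiment 2, each apart from the gene above it.

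Plin4 was chosen for its difference after SOR, so how it ranks among the genes around it is fixed by that choice, and only their own values are described. Within 250 kb of it on chromosome 17, 33 genes are annotated and 27 were tested. Of the 26 besides Plin4, 0 were called in the edgeR quasi-likelihood test, against 0.0897% of all genes tested, and 3 (11.5%) had SOR libraries all above the homecage ones, against 3.06%. These were Plin3 (168 kb away), Sh3gl1, which encodes an endophilin of membrane trafficking (log2 fold change 0.40, SE 0.0827), and Yju2, a splicing factor (0.31, SE 0.131). Over the 26, log2 fold changes ran from -0.32 (Stap2) to 0.57 (Ebi3), with a median of 0.11. Hdgfl2, which overlaps the end of Plin4 on the other strand, had 52.5 ± 5.24 CPM in the homecage and 61.6 ± 15.4 CPM after SOR (SD, n = 4 each), with a log2 fold change of 0.23 (SE 0.15).

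**Figure D3:**
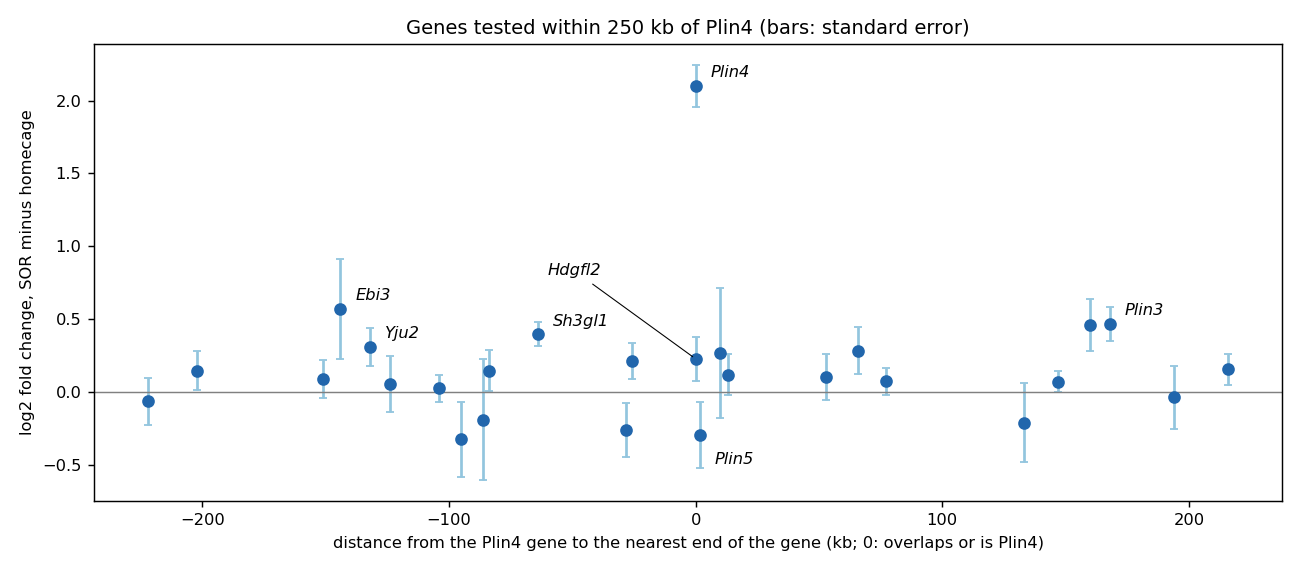
Log2 fold change after SOR (SOR minus homecage, with its standard error) of the 27 genes tested within 250 kb of Plin4, against the distance in kb from the Plin4 gene. Plin4, chosen for its value in this contrast, stands at 2.10, and the other 26 lie between -0.32 and 0.57, Plin5 at -0.30 among them.

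The bases just upstream of Plin4 are shown because the transgene of experiment 1 blocks Nr4A factors, whose site was among the motifs searched. They come from the RefSeq promoter table (GRCm38.p6), chr17:56109804-56110032, minus strand, written 5′ to 3′, with a GC content of 64.6%. No capitals are used, since none of the motifs searched lies in them.
Plin4 upstream bases: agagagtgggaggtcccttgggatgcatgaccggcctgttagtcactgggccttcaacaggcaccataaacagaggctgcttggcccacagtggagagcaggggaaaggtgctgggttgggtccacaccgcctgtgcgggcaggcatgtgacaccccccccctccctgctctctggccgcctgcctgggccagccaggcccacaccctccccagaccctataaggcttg

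The motifs were searched on both strands in windows from 250 bases before to 50 bases after each RefSeq start, 10 windows for the 8 genes and 32851 in all. The NBRE, the site bound by Nr4A monomers (AAAGGTCA), was in none of the 10 and in 1.51% of all windows. A glucocorticoid response element (AGAACA and TGTTC, 3 bases apart) was in none of the 10 and in 0.0487% of all, a PPAR response element (AGGTCA before AGGTCA, 1 base apart) in none and 0.0396%, and a CRE (TGACGTCA) in none and 1.79%. The core of the hypoxia response element (ACGTG) was in windows of Hilpda and Plin2, and in 19.6% of all windows. No match says only that these letters are not in these windows.

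The genes most like Plin4 across experiment 1 were Arsi (a sulfatase), Itfg2 (part of a complex that restrains mTORC1), Rin2 (a Rab5 exchange factor), Fam83d (a spindle protein) and Galnt15 (a glycosyltransferase). They had the highest Pearson r with Plin4 in log2 CPM over the 11 libraries, after centring each group, among 22390 genes. Arsi had r = 0.947 (Spearman rho 0.864), Itfg2 0.946 (0.836), Rin2 0.943 (0.936), Fam83d 0.935 (0.918) and Galnt15 0.920 (0.836). Without the 2 libraries farthest from the median of Plin4, DN replicates 4 and 5, the values of r were 0.864, 0.749, 0.871, 0.865 and 0.824. The group means were still those of all 11 libraries, so the 2 left out still entered the centring of DN mice. All 5 genes, like Plin4, had their lowest level of the 11 libraries in DN replicate 4. They were chosen for a high r with Plin4, which is farthest from its group mean in that library, so the choice favours this and nothing is read from it. Without that library, 0 of these 5 genes were among the 5 with the highest r. The libraries are shared by all genes compared, and the values of r are a description.

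**Figure D4:**
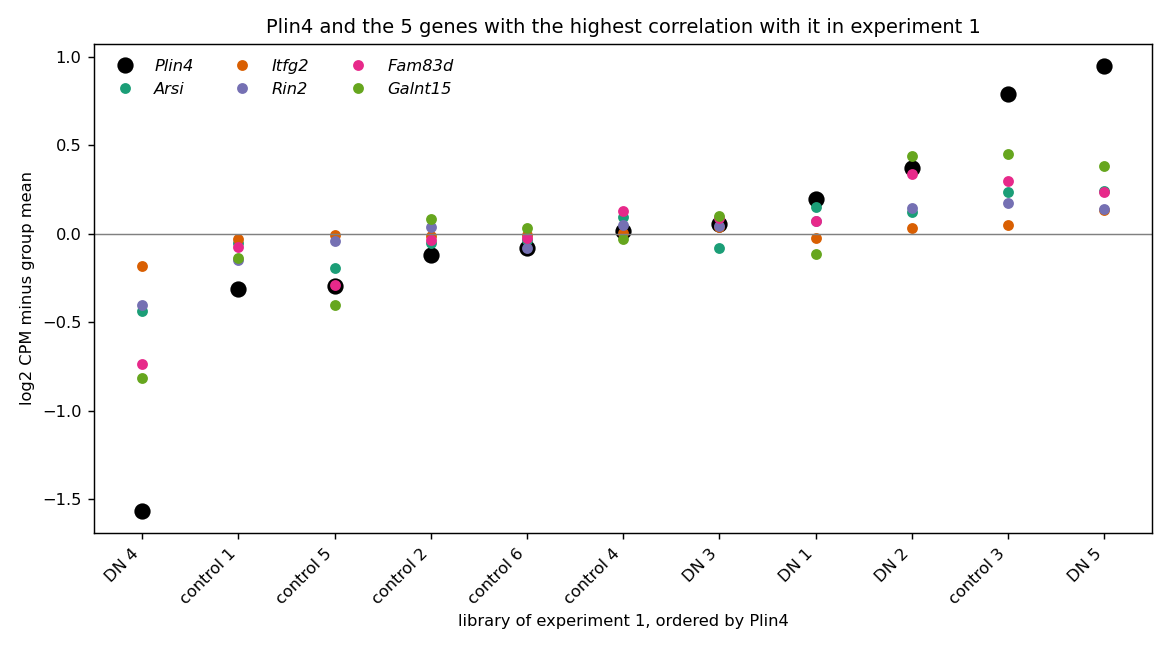
Log2 CPM minus the group mean of Plin4 and of the 5 genes with the highest correlation with it, in the 11 libraries of experiment 1 ordered by Plin4. DN replicate 4 is lowest for all 6 genes (Plin4 at -1.56, the others between -0.81 and -0.18), and DN replicate 5 and control replicate 3 are highest for Plin4.

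In experiment 2, with each exposure group centred over 8 libraries, Rin2 (r = 0.739), Fam83d (0.694) and Galnt15 (0.578) kept values above 0, while Arsi (-0.411) and Itfg2 (-0.248) did not. Differences with tTA genotype, which is uneven across these groups, were not centred out. Mean levels after SOR were higher for Rin2, Fam83d, Galnt15 and Arsi, from 37.6 ± 1.63 to 49.6 ± 3.90 CPM for Rin2 (SD, n = 4 each; log2 fold change 0.40, SE 0.0852), with log2 fold changes of 1.14 (SE 0.281) for Fam83d, 0.93 (SE 0.194) for Galnt15 and 0.48 (SE 0.378) for Arsi, against 0.004 (SE 0.0939) for Itfg2. The level of Arsi went with tTA genotype. Its tTA- libraries were at 2.145 and 2.099 CPM in the homecage and 2.163 CPM after SOR. Its tTA+ libraries were at 5.142 and 4.908 CPM in the homecage and 7.075, 5.251 and 5.712 CPM after SOR. More SOR than homecage libraries were tTA+, and the part of genotype in the Arsi value of 0.48 was not tested. Among the other 7 members, r with Plin4 in experiment 1 ran from -0.443 (Hilpda) to 0.484 (Pnpla2), with Plin5 at -0.397, Plin2 at -0.322 and Plin3 at 0.191.

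The rest of the droplet pathway showed no gene past the threshold in any comparison. Of all genes tested, 0.0897% were past it after SOR, 0.00893% between DN and control mice and 0.358% between tTA+ and tTA- mice. With shares so low, an absence of calls in lists this short says nothing about the pathway. Of 7 other lipases and cofactors of lipolysis, 7 were tested and 0 called after SOR, their median log2 fold change being 0.01 and their range from -0.28 (Pnpla3, SE 0.147) to 0.21 (Lipa, the lysosomal acid lipase, SE 0.113). Of 12 genes of triglyceride and sterol ester synthesis, 0 of 12 were called, the median was 0.08, and the range ran from -0.08 (Dgat1) to 0.88 (Lpin3, a phosphatidate phosphatase, SE 0.277). Of 13 genes of droplet formation and coat, 10 were tested and 0 called, with a median of 0.11. Acsl3, which activates fatty acids at growing droplets, led that list with homecage libraries at 263 ± 28.6 CPM and SOR libraries at 327 ± 20.5 CPM (SD, n = 4 for both; log2 fold change 0.31, SE 0.0936), and it was the 1 gene of the 10 whose SOR libraries all lay above the homecage ones, against 3.06% of all genes. Cideb, a droplet fusion protein, was lowest at -0.15 (SE 0.293). These lists were chosen with earlier results of these data known, so their counts are no independent support.

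Genes of fatty acid oxidation and of PPAR, the nuclear receptors that fatty acids activate, had 14 of 17 log2 fold changes above 0 after SOR, a median of 0.18 and 0 called. Their range ran from -0.43 for Cd36, a fatty acid transporter (SE 0.234), to 0.39 for Pdk4, a kinase that spares glucose (SE 0.124). Pdk4 had 9.83 ± 0.430 CPM in homecage libraries and 12.9 ± 2.08 CPM in SOR libraries (SD, n = 4 for both), with no overlap. It was 1 of 3 genes of the 17 with SOR libraries all above the homecage ones, against 3.06% of all genes tested. The others were Angptl4, an inhibitor of lipoprotein lipase (0.38, SE 0.18), and Hadha, a subunit of the mitochondrial trifunctional protein (0.23, SE 0.0883). The median of all 22305 genes tested was 0.008 in this contrast, and 11491 of them were above 0. The list of 17 was chosen with earlier results of these data known, so its counts are no independent support.

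Among 12 hypoxia-regulated genes, Slc2a1, the glucose transporter GLUT1, rose from 44.8 ± 1.52 to 66.9 ± 6.72 CPM (SD, n = 4 each; log2 fold change 0.58, SE 0.089; edgeR adjusted p = 0.0432). It was 1 of 12 called, against 0.0897% of all genes tested, and the median of the list was 0.08. The list was chosen with earlier results of these data known, so its count is no independent support. The call was lost in tTA+ mice alone (0.49, SE 0.125, edgeR adjusted p = 0.998), with tTA as a covariate and with the replicate number as a block. The call was lost too with upper quartile scaling and with at least 10 counts asked of every library. It was also lost in 6 of the 8 fits that left a library out, all but those without SOR replicate 3 or 4. Over these 8 fits the edgeR adjusted p ran from 0.0224 to 0.265 and the log2 fold change of Slc2a1 from 0.51 to 0.63. Vegfa, not past the threshold, had 0.18 (SE 0.103), and Car9 was lowest at -0.82 (SE 0.441). Endothelial markers summed to 210.7 to 226.7 CPM in the homecage and 195.0 to 211.9 CPM after SOR, and their part in the value of Slc2a1, known from brain vessels, was not tested.

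Glucocorticoid-regulated genes had the highest median of the 6 gene lists after SOR. All 15 of 15 had log2 fold changes above 0, with a median of 0.55. Called were 2 of 15, both higher, and 11 of 15 had SOR libraries all above the homecage ones, against 0.0897% and 3.06% of all genes tested. Tsc22d3, which encodes the glucocorticoid-induced leucine zipper, was at 67.1, 59.5, 68.8 and 75.3 CPM in the homecage and 153.8, 121.7, 163.6 and 116.7 CPM after SOR (log2 fold change 1.04, SE 0.123; edgeR adjusted p = 0.00992). Cdkn1a, the cell cycle inhibitor p21, was at 1.42 to 2.04 CPM and 3.31 to 6.10 CPM (1.54, SE 0.23; edgeR adjusted p = 0.0404). Both calls were lost in tTA+ mice alone (edgeR adjusted p = 0.998 for each), where the log2 fold changes were 0.89 (SE 0.177) and 1.48 (SE 0.323). Tsc22d3 was also not called without homecage replicate 1, 2 or 3 or SOR replicate 1, with an edgeR adjusted p of up to 0.0817. Cdkn1a was called without SOR replicate 3 or 4 but in none of the other 6 fits that left a library out (edgeR adjusted p of up to 0.198). It was also not called with tTA as a covariate, with limma-voom or with the replicate number as a block. Hif3a, not past the threshold (edgeR adjusted p = 0.174), had 1.31 (SE 0.266), and Per1 was lowest at 0.15 (SE 0.106). The list was chosen with results of these libraries known, so its counts are no independent support. Of the cell type markers tested, 0 were called after SOR. Choroid plexus markers had higher values after SOR, as given above. SOR libraries were all below the homecage ones for 3 of 8 endothelial markers (Kdr, Tek and Slco1a4; list median -0.10), and all above for 2 of 8 astrocyte markers (Aldh1l1 and Aldoc; list median 0.11), 1 of 8 oligodendrocyte markers (Mobp) and 1 of 8 microglial markers (Tmem119), against 5.71% of all genes in either direction. Astrocyte markers summed to 2438 to 2769 CPM in the homecage and 2628 to 3009 CPM after SOR. The part of these markers in the values of the droplet and list genes was not tested.

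**Figure D5:**
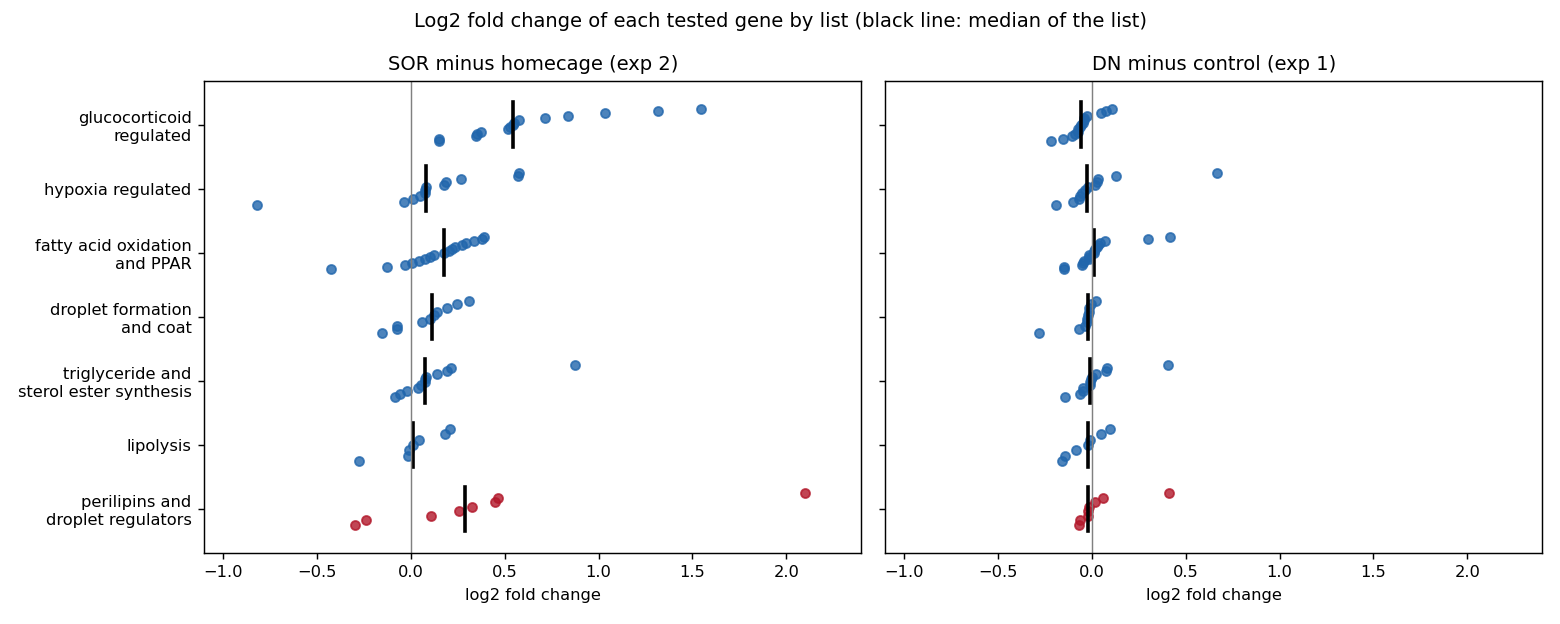
Log2 fold change of each tested gene by list, after SOR in experiment 2 (left) and in DN against control mice (right), with the median of each list as a black line. After SOR the glucocorticoid-regulated genes have a median of 0.55 and Plin4, the gene this contrast chose, is at 2.10, while every list median on the right is between -0.06 and 0.01.

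In DN against control mice 0 genes of the 6 lists were called, against 0.00893% of all genes tested. The list medians ran from -0.06 to 0.01, with 0.0 for all genes tested. The farthest single values were those of low genes, such as Car9 (0.67, SE 0.292) and Cd36 (0.42, SE 0.228). Between tTA+ and tTA- mice 0 genes of the lists were called as well, against 0.358% of all genes tested. The list medians there lay between -0.05 and 0.07. Groups did not overlap in 3 of the 10 genes of droplet formation and coat, 1 of the 7 of lipolysis and 1 of the 12 hypoxia-regulated genes, all higher in tTA+ mice, against 5.8% of all genes in either direction. Tmem159, which encodes a partner of seipin at droplet formation sites, had the largest list value that did not overlap (0.52, SE 0.122; edgeR adjusted p = 0.172). Log2 fold changes were also above 0 for 8 of 8 oligodendrocyte, 8 of 8 microglial, 6 of 6 ependymal and 7 of 8 astrocyte markers. They were so for 4 of 8 neuronal, 4 of 8 endothelial, 2 of 8 choroid plexus, 2 of 8 mural and meningeal and 4 of 5 blood markers. The part of these markers in the list values was not tested.

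Within experiment 1, 12 of the 15 glucocorticoid-regulated genes had an r with Plin4 above 0. Their median r with Plin4 was 0.496, against -0.008 over all genes, and 7 of 15 (46.7%) were over 0.5, against 7.8% of all genes. Without DN replicates 4 and 5, and with the centring not redone, the median was 0.207 and 4 of 15 (26.7%) were over 0.5. Over all genes these were 0.003 and 7.57%. The lipolysis genes had a median of 0.403, with 3 of 7 (42.9%) over 0.5, led by Ddhd2, a phospholipase (0.735), and Mgll, the monoacylglycerol lipase (0.670). Without the same 2 libraries these were 0.299 and 1 of 7 (14.3%). The other lists had medians below 0, at -0.371 for triglyceride and sterol ester synthesis (0 of 12 over 0.5), -0.248 for hypoxia-regulated genes (2 of 12), -0.05 for fatty acid oxidation and PPAR (1 of 17) and -0.049 for droplet formation and coat (1 of 10). The 1 gene over 0.5 in the last list was Acsl3, with r = 0.883, rank 30 of the 22390 genes, 0.575 without the same 2 libraries and -0.490 in experiment 2. The highest of the glucocorticoid list were Klf9 (r = 0.869), Zbtb16 (0.851) and Hif3a (0.800), all regulators of transcription. Without those libraries the 3 were 0.647, 0.762 and 0.797, and that of Tsc22d3 went from 0.620 to 0.107. In experiment 2 the medians were 0.148 for the glucocorticoid list and -0.167 for lipolysis.

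DN replicate 4, the library with 4.75 CPM of Plin4, was the lowest of the 11 for 7 of the 15 glucocorticoid-regulated genes (46.7%) and for 3 of the 7 lipolysis genes (42.9%, Mgll, Ddhd2 and Abhd6), against 9.59% of all genes tested. This library was singled out for its low Plin4 and weighs heavily in r. Genes with a high r with Plin4 therefore tend to be lowest in it, and nothing is read from these counts. DN replicate 4 held 69.7 CPM of Tsc22d3, where the other 10 held 78.9 to 107.5 CPM, and 171.9 CPM of Klf9, where the others held 196.8 to 215.8 CPM. Of the 8 droplet genes it was the lowest library for Plin4 alone. It was also lowest for 4 of 8 oligodendrocyte markers (summed 6552 CPM, against 6846 to 8055 in the other 10) and highest in the summed markers of blood (109.8 CPM, against 36.9 to 74.4), of mural and meningeal cells (196.0 CPM, against 150.5 to 188.4) and of endothelium (226.3 CPM, against 186.9 to 221.7). Its choroid plexus sum was 31.1 CPM, within the range of the other DN libraries. The part of these differences in the level of Plin4 was not tested.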

How the data were processed

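The authors deposited whole-number counts of reads for 51789 genes in 19 libraries. STAR, SAMtools 1.6, featureCounts 1.4.4 and the mm10 build are named in the submitters' processing notes. The annotation, the use of strand and the handling of multiply mapped reads are not given in the sources used here. Symbols, positions and exon lengths came from GENCODE M21 (GRCm38), which held 51596 of the identifiers, and promoters from RefSeq (GRCm38.p6).

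Each experiment was fitted alone with edgeR 4.0.16 in R 4.3.3: TMM scaling, filterByExpr, robust quasi-likelihood F tests (two-sided), Benjamini-Hochberg adjustment over all genes tested, and a call at an adjusted p under 0.05. Members were in all 3 fits, but their p-values are given for the DN and tTA comparisons only, since the SOR contrast chose Plin4. Each standard error was taken from the log2 fold change and its F value, and intervals cover 95%. Correlations used log2 CPM with a prior count of 2. The fits were tested on simulated counts.

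Library totals of 22258159 to 66991576 counts put counting error at 3.12% to 9.23% of a group mean for 6 members, 10.9% to 13.5% for Plin5 and 23.4% to 31.4% for Plin1. It was below the spread between libraries in each group, by little for G0s2 in DN mice (8.34% against 9.1%). The members and the lists were chosen with earlier results of these data known. Named are the 8 members, called list genes, the highest and lowest gene of each list, the 5 genes most like Plin4, and genes within 250 kb of it. Vegfa, Klf9, Zbtb16, Ddhd2, Mgll, Abhd6, Angptl4, Hadha, the markers named and DN replicate 4 lie outside that rule and were singled out after their values were seen. Alternatives were DESeq2 1.42.0 and its size factors, limma-voom (limma 3.58.1), upper quartile scaling, other filters on low counts, 1 fit of all libraries, tTA as a covariate, tTA+ mice alone, the replicate number as a block, and each library left out.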

Additional observations from a re-analysis of the deposited data

Results flagged for a closer look

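Plin4 in control replicate 3 of experiment 1, at 27.1 CPM, stood apart from the other 5 controls, the nearest of which was at 15.9 CPM. The gap was 0.776 of the range of the group, above the Dixon critical value of 0.625 for 6 libraries. Hilpda in control replicate 2 of experiment 1, at 4.13 CPM, stood apart from a nearest value of 3.45 CPM, with a gap of 0.65 of the range. These were 2 of 32 groups of libraries examined, and chance gives about 1 in 20. Plin4 in DN replicate 4 (4.75 CPM) did not pass the same limit for 5 libraries, since the DN group was also wide at its upper end.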

How the results depend on the processing

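As a description, since this contrast chose it, the log2 fold change of Plin4 after SOR was 2.06 to 2.22 over the settings tried and 2.02 to 2.23 with each library left out. In tTA+ mice alone 0 members were past the threshold. The count of all genes called after SOR (20) was far less stable: 36 with no filter on low counts, 116 with DESeq2, 145 with all 19 libraries in 1 fit, 11 with tTA as a covariate, 0 in tTA+ mice alone, and 1 to 50 with each library left out (50 without SOR replicate 3, 1 without homecage replicates 1, 2 or 3). The tTA count (82) was 265 with no filter, 255 with DESeq2, 383 in 1 fit and 10 to 290 with each library left out, 290 without SOR replicate 3. Over the 10 settings the called list genes were past the threshold in 9 (Tsc22d3), 6 (Cdkn1a) and 5 (Slc2a1), with log2 fold changes above 0 in each. The causes were not tested. The DN comparison called 2 genes in each of its 8 alternatives and 11 fits with a library left out, and 0 members throughout.

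Correlations of same-numbered libraries ran from -0.05 to 0.194 in experiment 1 and 0.045 to 0.391 in experiment 2. Libraries with different numbers were not compared in this way, so these values cannot decide whether the replicate numbers pair the libraries. With the replicate block the SOR comparison called 9 genes, Tsc22d3 but not Cdkn1a or Slc2a1 among the list genes, and the log2 fold change of Plin2 between DN and control mice was -0.018.

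Signs of differences near 0 changed without a call. After SOR in tTA+ mice alone Plin1 was 0.069 and Hilpda -0.13. Between DN and control mice Pnpla2 was -0.014 with limma-voom and G0s2 0.00042 with upper quartile scaling. With each library left out, Plin2 ran from -0.024 to 0.138, Plin3 from -0.106 to 0.011, Plin4 from -0.29 to 0.223, Plin5 from -0.241 to 0.134, Pnpla2 from -0.065 to 0.086 and G0s2 from -0.075 to 0.039. Between tTA+ and tTA- mice without the exposure term Plin4 was 0.343 and G0s2 0.007, and with each library left out Plin3 ran from -0.006 to 0.153, Plin5 from -0.093 to 0.243, Hilpda from -0.002 to 0.365 and G0s2 from -0.132 to 0.023. Of the 5 genes most like Plin4, 0 to 4 stayed among the highest 5 with each library left out (0 without DN replicate 4), and 5 with a prior count of 0.5.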
